A study of Mus musculus with 14 samples.

Results

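The genes described here are 10 Notch ligands, receptors and targets, out of 35275 genes measured by RNA sequencing of mouse ovarian cancer tumorspheres. They were found in the deposited table by gene symbol, and each of the 10 was present. The ligands are Jag1, Jag2, Dll1 and Dll4, the receptors are Notch1, Notch2 and Notch3, and the targets are Hes1, Hey1 and Heyl. They were chosen by measured values: Jag2 was higher in cells with re-expressed FAK and in cells with active β-catenin than in FAK knockout cells. The comparisons of FAK-WT with FAK KO and of β-catenin ΔGSK with FAK KO are therefore given for the 10 genes as descriptions, with no test. Jag2 was tested only between KMF and FAK-R454, which share no sample with those 2 comparisons.

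KMF cells are a mouse ovarian carcinoma line obtained by passaging ID8 cells through C57Bl/6 mice, and the parental line was sequenced in 3 samples. FAK KO is clone KT13, in which the FAK gene Ptk2 was disrupted with CRISPR/Cas9, and it was sequenced in 3 samples. FAK-WT (3 samples), FAK-R454 (2 samples) and β-catenin ΔGSK (3 samples) were made from KT13 by adding GFP-FAK, GFP-FAK with the kinase-inactivating R454 change, or β-catenin that lacks its GSK phosphorylation sites, so these lines share the disrupted Ptk2 alleles of KT13 and the history of 1 clone. The study's methods describe 3 samples of FAK-R454, and 2 were among the samples analysed here. All cells were kept for 5 days as anchorage-independent tumorspheres. The study's methods describe KMF samples from different cell passages together with ID8 samples. Neither the methods nor the labels say whether these are the KMF samples used here. For KT13 and the 3 lines made from it, neither source says whether the samples of a line are separate cultures. The p-values therefore measure the spread between the samples of the lines, which may be technical. The GFP-FAK constructs came by lentivirus and β-catenin ΔGSK by retrovirus, and no empty vector is labelled for FAK KO.

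Notch signalling passes between cells that touch. Jagged and Delta ligands on a cell bind Notch receptors on its neighbour, the receptor is cut by ADAM proteases and then by γ-secretase, and its intracellular part joins RBPJ and Mastermind proteins in the nucleus to switch on genes such as those of the Hes and Hey families. Ligands and receptors carried by the same cell can also hold each other inactive. In ovarian carcinoma the pathway has been studied for its part in tumour growth, in cells with stem-like properties and in resistance to platinum drugs.

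Between 25390558 and 35289859 fragments per library fell on genes. Mean Ptk2 mRNA was 15.5 FPKM in β-catenin ΔGSK, 19.0 in FAK KO and 24.3 in parental cells, and 43.4 and 62.4 FPKM with re-expressed FAK-WT and FAK-R454, a count over the whole gene that does not check the edited part. FPKM are fragments scaled to gene length and to the total of the library, so levels of different genes can be compared per length. Axin2, a β-catenin target, averaged 110 FPKM in β-catenin ΔGSK cells and at most 5.88 FPKM in the other lines. The keratin genes Krt8, Krt18 and Krt19 and the mesothelial genes Wt1 and Msln averaged at least 47.8 FPKM in each line, whereas the epithelial genes Cdh1, Epcam and Krt7 averaged at most 0.760 FPKM. The other ovarian surface and mesothelial markers varied more, with line means of 5.19 to 53.5 FPKM for Krt14, 4.03 to 31.6 for Upk3b and 0.126 to 1.14 FPKM for Lrrn4. Of the leukocyte markers, Ptprc, Cd3e and Csf1r averaged at most 0.0407 FPKM, while Cd68, a macrophage gene, averaged 1.32 to 8.62 FPKM and was highest in FAK-WT cells. Of the endothelial markers, Kdr, Cdh5, Vwf and Tie1 averaged at most 0.165 FPKM, Pecam1 0.286 to 1.17 FPKM and Tek 6.75 to 28.7 FPKM. In bulk RNA, fewer cells of a type and less RNA per cell cannot be told apart. The third FAK-WT sample stood apart from the other 2: without it, limma called 3312 genes instead of 921 between FAK-WT and FAK-R454. It also had the most Cd68, 12.3 FPKM, and the part of this in the results was not tested. Results that rest on this sample are given with and without it.

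Jag2 is a Jagged-type ligand of Notch receptors. The start of its gene is shown first because this gene led to the choice of the 10, and the starts of Jag1, the ligand of the same type, and of Notch3 are shown for contrast because their levels follow other orders across the lines. The stretches are RefSeq promoter windows of mouse GRCm38.p6, from 250 bases before to 50 bases after the annotated start, written 5′ to 3′ on the minus strand, and capitals mark the motif GGGCGG or its reverse complement CCGCCC, known as a GC box.
Jag2, chr12:112929446-112929745: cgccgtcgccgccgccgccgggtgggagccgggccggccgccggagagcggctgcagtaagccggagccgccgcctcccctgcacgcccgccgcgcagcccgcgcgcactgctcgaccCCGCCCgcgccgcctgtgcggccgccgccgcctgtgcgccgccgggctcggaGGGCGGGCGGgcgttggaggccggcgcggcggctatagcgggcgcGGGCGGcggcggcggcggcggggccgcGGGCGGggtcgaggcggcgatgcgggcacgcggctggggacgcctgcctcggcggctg
Jag1, chr2:137116471-137116770: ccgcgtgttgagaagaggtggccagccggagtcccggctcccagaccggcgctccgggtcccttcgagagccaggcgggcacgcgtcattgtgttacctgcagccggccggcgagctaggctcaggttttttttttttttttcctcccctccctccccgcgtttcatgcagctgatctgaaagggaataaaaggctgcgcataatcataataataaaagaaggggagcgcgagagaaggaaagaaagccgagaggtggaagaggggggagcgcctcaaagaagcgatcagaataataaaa
Notch3, chr17:32166841-32167140: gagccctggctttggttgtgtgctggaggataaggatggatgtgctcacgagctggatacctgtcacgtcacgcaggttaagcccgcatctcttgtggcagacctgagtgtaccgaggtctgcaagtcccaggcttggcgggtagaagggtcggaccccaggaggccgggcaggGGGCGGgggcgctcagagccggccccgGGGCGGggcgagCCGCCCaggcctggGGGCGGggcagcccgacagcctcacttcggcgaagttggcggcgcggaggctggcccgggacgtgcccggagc

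The Jag2 window was 86.0% G or C, a share reached by 0.0578% of 32851 mouse promoter windows of the same length, whose median was 52.7%. It held 5 GC boxes, counted on both strands with overlapping matches counted each. Windows with 5 or more made up 2.71% of all. The Jag1 window was 55.7% G or C and held 0 GC boxes, and that of Notch3 was 70.0% G or C and held 4. Windows were matched for 7 of the 10 genes (Jag1, Jag2, Dll1, Dll4, Notch1, Notch2 and Notch3, with 2 starts for Dll1). The Notch2 window held 7 GC boxes, more than that of Jag2, and the Notch1 window held 5. The Dll4 window held 2 and both Dll1 windows 0. None of these windows held the RBPJ motif TGGGAA, which 25.6% of all windows hold, or the TCF/LEF motifs ATCAAAG and AACAAAG, of which 9.33% hold at least 1, each searched on both strands. Hes1, Hey1 and Heyl were not matched. The absence of a match says only that these letters do not occur in these windows.

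**Figure D1:**
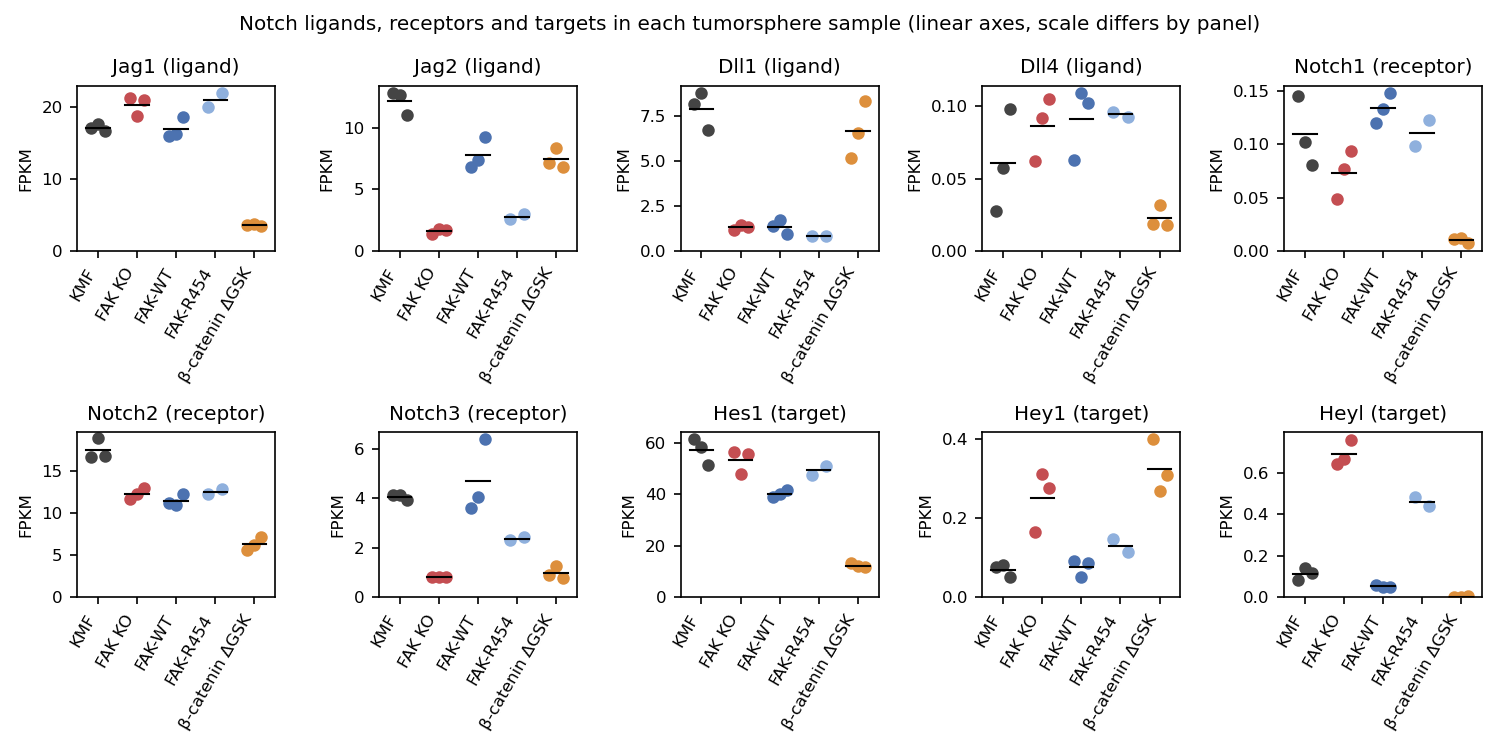
Level of each of the 10 genes in FPKM (vertical axis, linear from 0, with a scale of its own in each panel) in the 14 samples. Each point is a sample, the horizontal line is the mean of its line, and the 5 lines are ordered along the horizontal axis. Jag2 lies at 11.0 to 12.8 FPKM in KMF and at 1.40 to 1.80 FPKM in FAK KO samples.

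Jag2 (ENSMUSG00000002799, chromosome 12, 112908590 to 112929495, minus strand, GRCm38) was lowest in FAK KO cells. The 3 FAK KO samples had 1.40, 1.80 and 1.71 FPKM, and the 2 FAK-R454 samples had 2.59 and 2.97 FPKM. FAK-WT samples had 6.78, 7.40 and 9.27 FPKM, and β-catenin ΔGSK samples had 7.09, 8.32 and 6.83 FPKM. KMF samples had 12.8, 12.6 and 11.0 FPKM. The order of the means was KMF, FAK-WT, β-catenin ΔGSK, FAK-R454 and FAK KO, and of the neighbours in this order only FAK-WT and β-catenin ΔGSK overlapped. Differences are given below on the log2(FPKM + 0.1) scale with the standard error (SE) from limma. Over FAK KO, Jag2 was higher by 2.18 in FAK-WT cells (SE 0.14), by 0.74 in FAK-R454 (SE 0.15), by 2.12 in β-catenin ΔGSK (SE 0.13) and by 2.82 in KMF (SE 0.11). These values share the FAK KO samples and are descriptions. Compared with FAK-R454, FAK-WT had more Jag2, by 1.45 (SE 0.15), and by 1.32 without the third FAK-WT sample.
Between KMF and FAK-R454 cells, where Jag2 could be tested, it was higher by 2.09 in KMF (SE 0.097, adjusted p = 3.81e-05, limma with Benjamini-Hochberg adjustment over all genes tested). Each of the 3 KMF samples exceeded each of the 2 FAK-R454 samples. The difference ran from 1.80 to 2.21 over 14 alternatives of processing, and the adjusted p from limma was at most 0.00183. Of the 11896 genes tested between these lines, 21.2% were called higher in KMF and 22.5% lower, a call being an adjusted p under 0.05 at any fold. For 66.8% of these genes the samples of the 2 lines did not overlap, in either direction.

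Jag1 (ENSMUSG00000027276, chromosome 2, 137081456 to 137116644, minus strand), the other Jagged ligand, was lowest in β-catenin ΔGSK cells. The 3 β-catenin ΔGSK samples had 3.54, 3.75 and 3.51 FPKM. FAK KO samples had 21.2, 18.7 and 20.9 FPKM and FAK-R454 samples 19.9 and 21.9 FPKM. KMF samples had 17.1, 17.5 and 16.6 FPKM and FAK-WT samples 15.9, 16.2 and 18.6 FPKM. All β-catenin ΔGSK samples lay far below those of the 4 other lines, which spanned 15.9 to 21.9 FPKM. Relative to FAK KO, Jag1 was lower by 2.46 (SE 0.081) in β-catenin ΔGSK and by 0.26 (SE 0.083) in FAK-WT cells. After centring each sample on the median of each chromosome the FAK-WT difference was -0.093. The 3 tested genes within 1 Mb of Jag1 had median differences from FAK KO of -0.81 for FAK-WT, -0.75 for KMF, -0.39 for FAK-R454 and 0.15 for β-catenin ΔGSK, and their part in the Jag1 results was not tested. Jag1 fell by 0.24 in KMF relative to FAK KO cells (SE 0.069, adjusted p = 0.0178, limma), a call that was lost without the first KMF sample (adjusted p = 0.0589) or the third FAK KO sample (adjusted p = 0.0794, limma). It also fell by 0.29 in KMF relative to FAK-R454 cells (SE 0.063, adjusted p = 0.0113), which was lost without the second FAK-R454 sample (adjusted p = 0.101, limma). The call between FAK-WT and FAK-R454 was not reached, with a log2 difference of -0.31 (SE 0.086, adjusted p = 0.0872, limma), whereas without the third FAK-WT sample it was -0.38 with an adjusted p of 0.00249. With all samples kept, the call was also reached in 1 fit of 5 lines (adjusted p = 0.0320, limma). FAK-R454 and FAK KO differed by 0.046 (SE 0.082, adjusted p = 0.711, limma), and their samples overlapped.

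Dll1 (ENSMUSG00000014773, chromosome 17, 15367354 to 15376872, minus strand) encodes a Delta-type ligand. KMF samples had 8.18, 8.78 and 6.75 FPKM and β-catenin ΔGSK samples 5.17, 6.57 and 8.35 FPKM. FAK KO samples had 1.16, 1.47 and 1.31 FPKM, FAK-WT samples 1.40, 1.73 and 0.925 FPKM, and FAK-R454 samples 0.804 and 0.838 FPKM. KMF and β-catenin ΔGSK overlapped each other and lay above all other samples, whereas FAK-WT overlapped FAK KO. Dll1 rose by 2.50 in KMF relative to FAK KO cells (SE 0.13, adjusted p = 2.32e-06, limma), where 23.1% of the 11893 genes tested were called higher and 28.7% lower. The mean of FAK-R454 was below 1 FPKM, so with the filter Dll1 entered the comparisons with FAK-R454 only through the other line, in which it was higher, and p-values with no filter are given there. In KMF relative to FAK-R454 cells it rose by 3.11 (SE 0.13, adjusted p = 2.27e-04 with no filter, limma). In β-catenin ΔGSK relative to FAK KO cells it was higher by 2.25 (SE 0.17), a description in a comparison where 23.7% of 11915 genes were called higher and 34.4% lower. FAK-WT and FAK KO differed by 0.0037 (SE 0.22), and the sign turned on the sample left out, from -0.18 without the second FAK-WT sample to 0.23 without the third. FAK-R454 had a log2 difference of -0.61 from FAK KO (SE 0.18, adjusted p = 0.110 with no filter and 0.0516 with it, limma), with both of its samples below the 3 of FAK KO. Samples of these lines did not overlap, in either direction, for 55.1% of all genes that passed the filter. With no filter the adjusted p of Dll1 ran from 0.0377 in limma-voom, the only one of 10 alternatives that called it, to 0.414. FAK-WT was not called against FAK-R454, with a difference of 0.61 (SE 0.26, adjusted p = 0.313 with no filter, limma), and without the third FAK-WT sample the difference was 0.84 with an adjusted p of 0.0507 with no filter and of 0.0117 with it. The span of the antisense gene A930024N18Rik overlaps that of Dll1, and the library kit does not mark strand. Fragments from any exon sequence that these genes share cannot be told apart, and overlap of exons was not checked.

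Dll4 (ENSMUSG00000027314, chromosome 2, 119325784 to 119335962, plus strand), a Delta-type ligand best known from sprouting vessels, had 2 to 13 fragments per library, or 0.0181 to 0.109 FPKM. It passed the level filter of no comparison, that is a mean FPKM above 1 in at least 1 of the lines compared. The 3 β-catenin ΔGSK samples had 2, 3 and 2 fragments, and each line overlapped its neighbours in the order of the means. Fitted with no filter, Dll4 had adjusted p-values from limma of 0.410 to 0.938 in the 4 comparisons in which it was tested. The span of Gm14207 overlaps that of Dll4 on the other strand, and fragments from any shared exon sequence cannot be told apart.

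The make-up of the ligand pool differed between lines. Jag1 made up 86.9% of the summed FPKM of the 4 ligands in FAK KO cells (SD 2.10, n = 3), 85.0% in FAK-R454 (SD 0.134, n = 2), 64.7% in FAK-WT (SD 1.14, n = 3), 46.0% in KMF (SD 1.91, n = 3) and 20.4% in β-catenin ΔGSK cells (SD 1.83, n = 3). Jag2 made up 7.04%, 11.3%, 29.8%, 32.6% and 42.0% in the same order of lines, and Dll1 5.65%, 3.34%, 5.26%, 21.2% and 37.5%. FAK-WT and KMF thus had similar Jag2 shares, at 28.1% to 32.1% and 32.0% to 33.6%, but differed in Dll1, at 3.20% to 6.79% and 19.5% to 22.5%. The ratio of Jag2 to Jag1 was 0.0661 to 0.0960 in FAK KO, 0.130 to 0.136 in FAK-R454, 0.426 to 0.499 in FAK-WT, 0.663 to 0.749 in KMF and 1.94 to 2.21 in β-catenin ΔGSK samples, so that no 2 lines overlapped. Jag2 exceeded Jag1 in β-catenin ΔGSK samples, and in each sample of the other lines Jag1 exceeded Jag2. The sum of the 4 ligands was highest in KMF, at 34.5 to 39.0 FPKM, and lowest in β-catenin ΔGSK, at 15.8 to 18.7 FPKM. These shares contain Jag2, whose values led to the choice of genes, and were not tested.

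**Figure D2:**
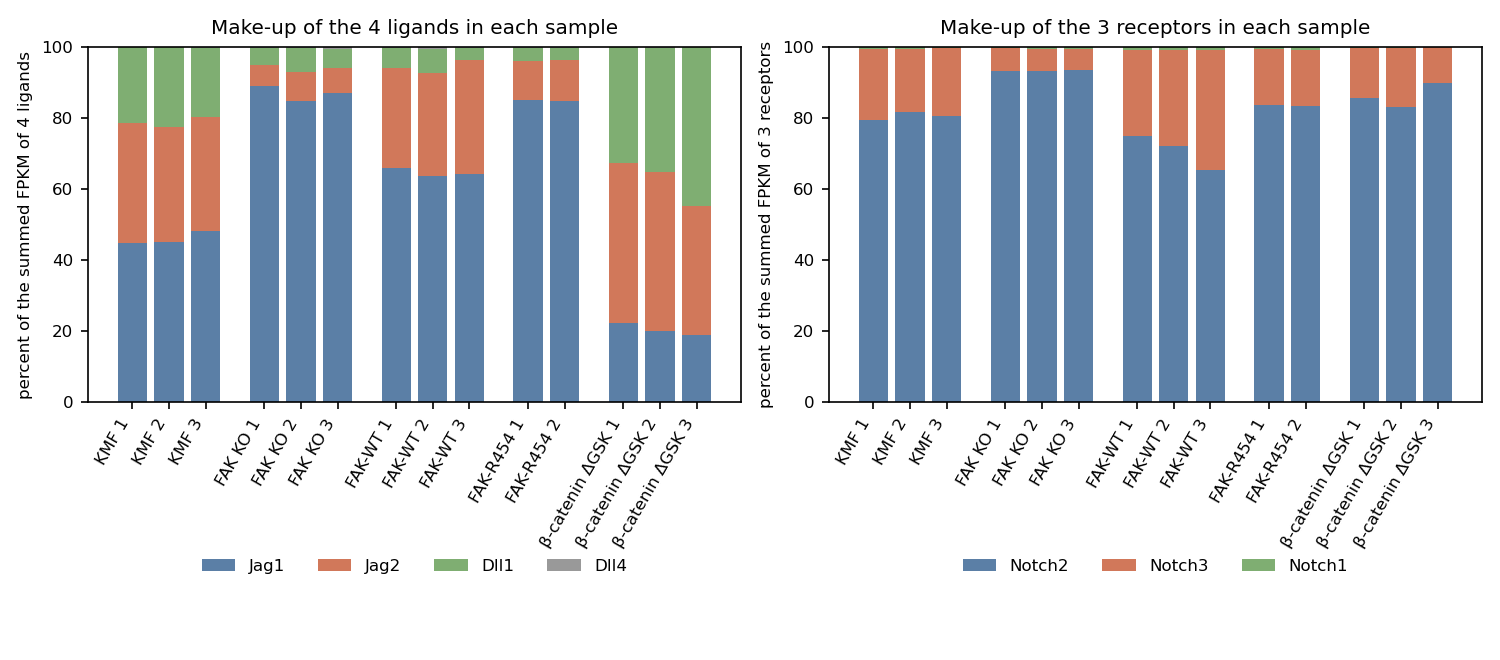
Share of each gene in percent of the summed FPKM of the 4 ligands (left) and of the 3 receptors (right) for each of the 14 samples, named by line and replicate. The Jag1 share runs from 84.8% to 89.0% in FAK KO and from 18.8% to 22.4% in β-catenin ΔGSK samples. The Notch3 share of the receptors is highest in FAK-WT replicate 3, at 33.9%.

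Notch2 (ENSMUSG00000027878, chromosome 3, 98013538 to 98150367, plus strand) was the most abundant of the 3 receptors in every sample. KMF samples had 16.6, 18.9 and 16.8 FPKM and FAK KO samples 11.7, 12.3 and 13.0 FPKM. FAK-WT samples had 11.2, 10.9 and 12.3 FPKM and FAK-R454 samples 12.3 and 12.8 FPKM. β-catenin ΔGSK samples had 5.62, 6.25 and 7.12 FPKM. KMF lay above and β-catenin ΔGSK below all other samples, while FAK KO, FAK-WT and FAK-R454 overlapped. Notch2 rose by 0.50 in KMF relative to FAK KO (SE 0.076, adjusted p = 8.42e-04, limma) and by 0.47 relative to FAK-R454 cells (SE 0.074, adjusted p = 0.00324, limma). The median difference of the genes of chromosome 3 was 0.21 in KMF relative to FAK KO, against -0.058 on other chromosomes, and 0.29 against -0.021 relative to FAK-R454. After centring each sample on the median of each chromosome, the Notch2 differences were 0.26 (adjusted p = 0.0285, limma) and 0.20 (adjusted p = 0.0671, limma), so the second call was lost. In β-catenin ΔGSK relative to FAK KO cells Notch2 was lower by 0.95 (SE 0.099). FAK-R454 and FAK KO differed by 0.032 (SE 0.076, adjusted p = 0.786, limma). FAK-WT and FAK-R454 differed by -0.13 (SE 0.071, adjusted p = 0.288, limma), and by -0.18 with an adjusted p of 0.0383 without the third FAK-WT sample.

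Notch3 (ENSMUSG00000038146, chromosome 17, 32120820 to 32166880, minus strand), the receptor best known from vascular smooth muscle, was lowest in FAK KO cells, as Jag2 was. FAK KO samples had 0.805, 0.806 and 0.822 FPKM, and β-catenin ΔGSK samples had 0.924, 1.25 and 0.803 FPKM. FAK-R454 samples had 2.30 and 2.44 FPKM. KMF samples had 4.15, 4.13 and 3.95 FPKM and FAK-WT samples 3.62, 4.07 and 6.38 FPKM. FAK KO and β-catenin ΔGSK overlapped at the bottom, FAK-R454 lay alone between, and KMF and FAK-WT overlapped at the top. Unlike Jag2, Notch3 overlapped between β-catenin ΔGSK and FAK KO, with a log2 difference of 0.24 (SE 0.20) in a fit with no filter. Relative to FAK KO, Notch3 was higher by 2.35 in FAK-WT cells (SE 0.20), and by 2.11 without the third sample. This is a description in a comparison where 15.6% of 11841 genes were called higher and 25.2% lower. Against FAK KO, Notch3 rose by 1.44 with FAK-R454 (SE 0.16, adjusted p = 0.00727 with no filter, limma), where 9.78% of 11818 genes were called higher and 9.89% lower with the filter. That call was lost without either of the FAK-R454 samples (adjusted p = 0.0850 and 0.108 with no filter, limma). In KMF cells it rose by 2.20 relative to FAK KO (SE 0.11, adjusted p = 3.18e-05 with no filter, limma) and by 0.76 relative to FAK-R454 (SE 0.082, adjusted p = 7.32e-04, limma).
FAK KO was below 1 FPKM, so with the filter Notch3 entered the comparisons with FAK KO only through the line in which it was high. FAK-WT minus FAK-R454 gave a Notch3 difference of 0.91 (SE 0.24, adjusted p = 0.0725, limma), and without the third FAK-WT sample it was 0.67 with an adjusted p of 0.00286. With all samples kept, 1 fit of 5 lines also called it (adjusted p = 0.0133, limma). Chromosome 17, which holds Notch3 and Dll1, had a median difference of 0.21 in KMF relative to FAK KO, against -0.060 on other chromosomes, and of 0.16 against -0.088 in FAK-WT relative to FAK KO. With chromosome centring and no filter Notch3 was 2.12 higher in KMF than in FAK KO (adjusted p = 5.88e-05, limma). For Dll1, which passed the filter in both lines, centring among the genes that passed gave 2.30 (adjusted p = 4.43e-06, limma). The 23 tested genes within 1 Mb of Notch3 had a median difference of 0.13 in KMF relative to FAK KO and of -0.045 for FAK-R454 against FAK KO. The span of Gm17276 overlaps that of Notch3 on the other strand, and fragments from any shared exon sequence cannot be told apart.

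Of the summed FPKM of the 3 receptors, Notch2 made up 93.3% in FAK KO (SD 0.115, n = 3), 86.2% in β-catenin ΔGSK (SD 3.34, n = 3), 83.5% in FAK-R454 (SD 0.226, n = 2), 80.6% in KMF (SD 1.10, n = 3) and 70.8% in FAK-WT cells (SD 4.92, n = 3). Notch3 made up 6.16%, 13.6%, 15.8%, 18.9% and 28.4% in the same order. The summed receptor level was 20.8 to 23.1 FPKM in KMF and 6.55 to 7.93 FPKM in β-catenin ΔGSK samples, with the other lines between. β-catenin ΔGSK cells thus had the lowest sums of both ligands and receptors, with the highest Jag2 share of the ligands.

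Notch1 (ENSMUSG00000026923, chromosome 2, 26457903 to 26516663, minus strand), the receptor best known from T cell development, had 14 to 44 fragments per library in the KMF, FAK KO, FAK-WT and FAK-R454 samples. β-catenin ΔGSK samples had 3, 3 and 2 fragments, or 0.0111, 0.0125 and 0.00716 FPKM, below every other sample. The other 4 lines had means of 0.0733 to 0.134 FPKM. With no filter, the adjusted p from limma was 0.350 to 0.949 in the 4 comparisons in which Notch1 was tested. Gm13568 and 0610009E02Rik overlap the gene on the other strand.

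**Figure D3:**
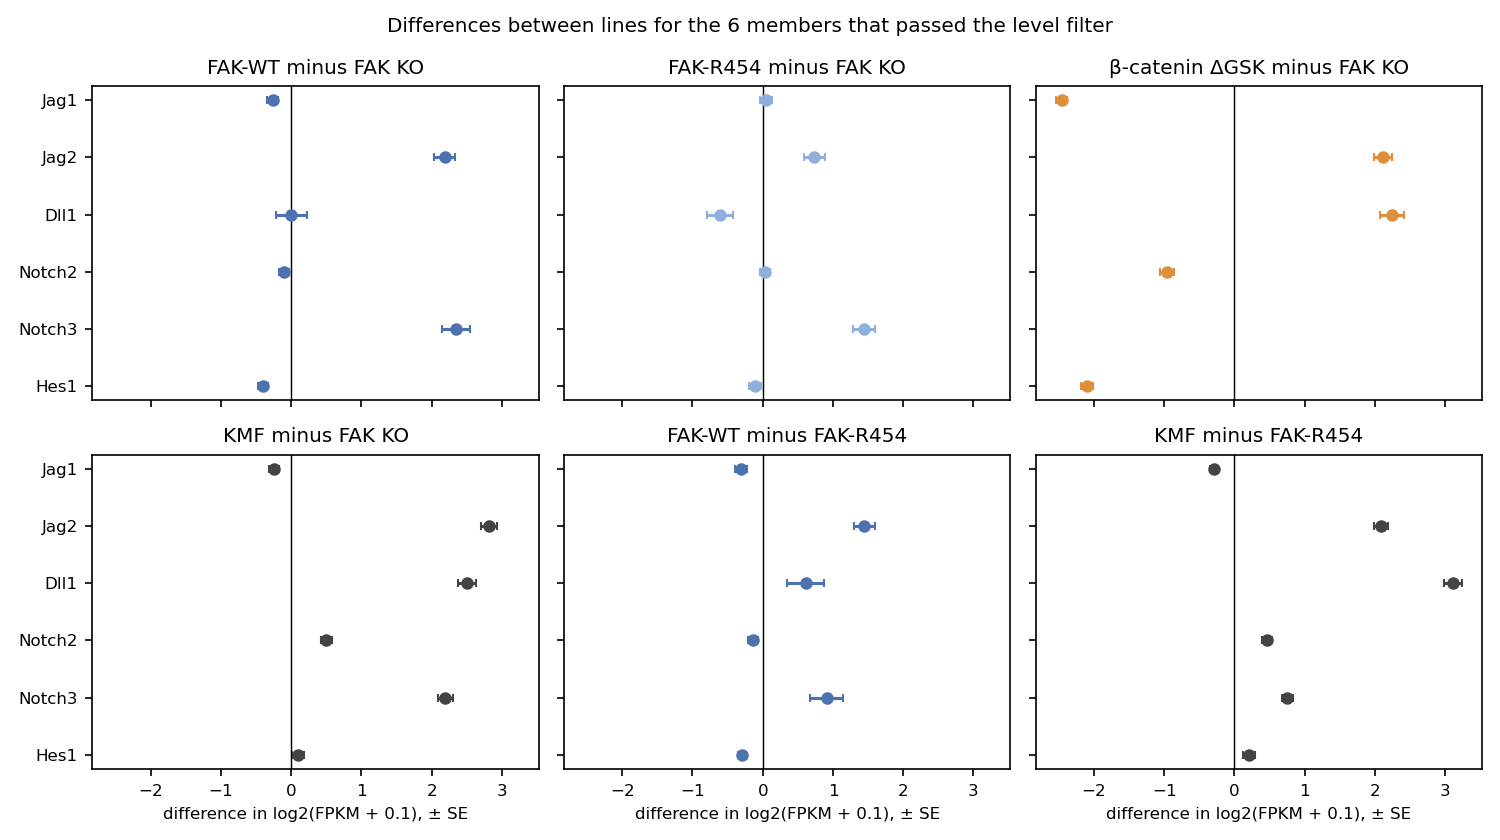
Differences in log2(FPKM + 0.1) (horizontal axis, bars are SE from limma) of the 6 genes that passed the level filter, 1 panel per comparison of 2 lines, as the line named first minus the line named second. Notch3 is missing from the β-catenin ΔGSK panel because its mean was below 1 FPKM in both lines. Jag1 and Hes1 lie on the left at -2.46 and -2.10 in that panel, while Jag2 and Dll1 lie on the right at 2.12 and 2.25.

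Hes1 (ENSMUSG00000022528, chromosome 16, 30064384 to 30067796, plus strand) encodes a transcriptional repressor that is a standard readout of Notch signalling and also answers to other pathways. It made up at least 97.1% of the summed FPKM of the 3 targets in every sample. KMF samples had 61.6, 58.6 and 51.5 FPKM and FAK KO samples 56.4, 48.0 and 55.7 FPKM. FAK-R454 samples had 47.5 and 51.2 FPKM and FAK-WT samples 38.9, 40.2 and 41.9 FPKM. β-catenin ΔGSK samples had 13.3, 12.0 and 11.7 FPKM. FAK KO overlapped both KMF and FAK-R454, KMF lay just above FAK-R454, FAK-WT lay below these 3 lines, and β-catenin ΔGSK lay below all. Hes1 was lower than in FAK KO by 2.10 in β-catenin ΔGSK (SE 0.086) and by 0.40 in FAK-WT cells (SE 0.077), where chromosome centring gave -0.25. The 8 tested genes within 1 Mb of Hes1 had median differences of -0.71 and -0.27 in these comparisons, and their part in the result was not tested. Compared with FAK-R454, Hes1 fell by 0.29 with FAK-WT (SE 0.058, adjusted p = 0.0386, limma), where 3.38% of 11782 genes were called higher and 4.44% lower. This call is not firm: over 14 alternatives the adjusted p ran from 0.00104 to 0.292, and it was lost without either of the FAK-R454 samples (0.183 and 0.292), without the first or second FAK-WT sample (0.103 and 0.144), with chromosome centring (0.105), with no filter (0.0606), without the trend (0.0699), in 1 fit of 5 lines (0.0648) and with scaling by medians of ratios (0.0702, limma). Without the third FAK-WT sample the call was kept, with a difference of -0.32 and an adjusted p of 0.00240 (limma). KMF had a Hes1 difference of 0.10 from FAK KO (SE 0.090, adjusted p = 0.375, limma) and of 0.21 from FAK-R454 (SE 0.086, adjusted p = 0.0923, limma). Over 14 alternatives the difference of KMF from FAK-R454 ran from 0.13 to 0.28, and its lowest adjusted p was 0.00142 (limma). FAK-R454 had a Hes1 difference of -0.11 from FAK KO (SE 0.085, adjusted p = 0.378, limma). Without the second FAK KO sample it was -0.18 with an adjusted p of 0.0489 (limma).

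Heyl (ENSMUSG00000032744, chromosome 4, 123233556 to 123249875, plus strand), a repressor of the Hey family, was below 1 FPKM in every sample, but its lines did not overlap. FAK KO samples had 88, 79 and 96 fragments, or 0.644, 0.668 and 0.756 FPKM. FAK-R454 samples had 61 and 63 fragments, or 0.484 and 0.438 FPKM. KMF samples had 11, 18 and 19 fragments, FAK-WT samples had 8, 6 and 7, and β-catenin ΔGSK samples had 0, 0 and 1. The order of the lines was FAK KO, FAK-R454, KMF, FAK-WT and β-catenin ΔGSK, so the 2 lines with the most Heyl were those with the least Jag2. Heyl lay below the filter, and the fit with no filter gave a difference in KMF relative to FAK KO of -1.89 (SE 0.20, adjusted p = 6.27e-04, limma), with each KMF sample below each FAK KO sample. Among all genes that passed the filter in that comparison, 60.8% had samples that did not overlap, in either direction. The adjusted p of Heyl there ran from 1.09e-05 to 0.00526 over 11 alternatives (limma). Against FAK-R454, Heyl fell by 1.39 in KMF (SE 0.21, adjusted p = 0.00733, limma) and fell by 1.88 with FAK-WT (SE 0.19, adjusted p = 0.0159, limma). These last calls were lost without either of the FAK-R454 samples, with adjusted p-values of 0.0608 and 0.0552 against KMF and of 0.0543 and 0.0605 against FAK-WT, and the FAK-WT call also without the first or the second FAK-WT sample (0.0696 and 0.104, limma). FAK-R454 was not called against FAK KO, with a difference of -0.49 (SE 0.21, adjusted p = 0.220, limma). FAK-WT was lower than FAK KO by 2.37 (SE 0.19), a description. At these levels the size depends on the pseudocount: a pseudocount of 1 gave -0.68 and limma-voom -3.62 for FAK-WT against FAK KO, -0.47 and -3.05 for FAK-WT against FAK-R454, -0.60 and -2.58 for KMF against FAK KO, and -0.39 and -2.00 for KMF against FAK-R454. No fold is given for β-catenin ΔGSK cells with 1 fragment in 3 libraries. Notch3 and Heyl are known from pericytes and smooth muscle, and 5 markers of these cells had line means of at most 2.41 FPKM. Des averaged 1.44 FPKM for FAK KO and 2.41 for FAK-WT, Myh11 0.413 and 0.555, Kcnj8 0.0319 and 0.125, and Cspg4 0.347 and 0.327 FPKM. For KMF these 4 averaged 0.836, 0.0252, 0.00432 and 0.165 FPKM, for FAK-R454 1.95, 0.324, 0.0927 and 0.275, and for β-catenin ΔGSK 1.66, 0.536, 0.0225 and 0.0217 FPKM. Rgs5 had 1.31, 0.777 and 1.15 FPKM in FAK KO samples, 1.03 and 0.879 in FAK-R454, 0.303 to 0.696 in FAK-WT, 0.0385 to 0.124 in β-catenin ΔGSK and 0.00840 to 0.0277 FPKM in KMF samples. The part of these genes in the Notch3 and Heyl results was not tested.

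Hey1 (ENSMUSG00000040289, chromosome 3, 8663362 to 8667039, minus strand), a related repressor, had 3 to 25 fragments per library. β-catenin ΔGSK samples had 25, 15 and 20 fragments and FAK KO samples 11, 18 and 17, and these lines overlapped in FPKM. FAK-R454 samples had 9 and 8 fragments, FAK-WT samples 6, 3 and 6, and KMF samples 5, 5 and 4. Unlike Hes1 and Heyl, Hey1 was thus not lowest in β-catenin ΔGSK cells. In the fit with no filter Hey1 fell by 1.03 in KMF relative to FAK KO cells (SE 0.22, adjusted p = 0.0127, limma), with every KMF sample below every FAK KO sample. Over 11 alternatives the size of this difference ran from -1.715 to -0.224, and the adjusted p from 0.00844 to 0.0428 (limma). Samples of KMF and FAK KO did not overlap, in either direction, for 60.8% of all genes that passed the filter. In the 3 other comparisons in which Hey1 was tested the adjusted p was 0.138 to 0.381.

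The other genes of the pathway were taken as a list of 56 ligands, ligand and receptor processing factors, nuclear cofactors and targets, all of them in the table, and 47 passed the filter in each comparison. The other ligands Dll3, Dlk1, Dlk2 and Dner, the receptor Notch4, the glycosyltransferase gene Mfng and the targets Hes5, Hes7 and Hey2 did not pass. In FAK-WT relative to FAK KO cells 7 of the 47 rose and 10 fell. In β-catenin ΔGSK relative to FAK KO cells 10 rose and 14 fell, and in KMF relative to FAK KO cells 8 rose and 10 fell. FAK-R454, with 2 samples, gave 6 that rose and 2 that fell. As shares, 36.2%, 51.1%, 38.3% and 17.0% of the list were called in these comparisons, against 40.8%, 58.1%, 51.8% and 19.7% of all genes tested. The differences between these shares were not tested. The median log2 difference of the list was between -0.066 and 0.0063 in the 4 comparisons, and that of all genes between -0.089 and -0.028. KMF relative to FAK-R454 gave 8 that rose and 11 that fell, and FAK-WT against FAK-R454 gave 0 and 2 in limma on log2 FPKM, 1 and 2 in limma-voom, and 4 and 14 at an unadjusted p under 0.05. These were 40.4% and 4.26% of the list called in limma on log2 FPKM, against 43.6% and 7.82% of all genes tested. The sum of 2 became 18 without the third FAK-WT sample, 1 without the first or the second, and 0 without either FAK-R454 sample. The count for FAK-R454 against FAK KO became 17 without the second FAK KO sample, 2 without the third FAK KO sample, and 2 without either FAK-R454 sample. That for FAK-WT against FAK KO became 8 without the third FAK KO sample, 9 without the first, and 11 without the first FAK-WT sample. That for β-catenin ΔGSK became 15 without either the second or the third of its samples, and that for KMF against FAK-R454 became 9 or 8 without 1 of the FAK-R454 samples.

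Among ubiquitin ligases that act on ligands, Neurl1b rose in each line relative to FAK KO. FAK KO samples had 3.66, 3.73 and 3.87 FPKM, and the means were 12.5 FPKM for KMF, 9.10 for β-catenin ΔGSK, 6.89 for FAK-WT and 4.88 FPKM for FAK-R454. The log2 differences were 1.70 for KMF (adjusted p = 1.64e-06), 1.25 for β-catenin ΔGSK (adjusted p = 2.96e-06), 0.85 for FAK-WT (adjusted p = 6.72e-04) and 0.37 for FAK-R454 (adjusted p = 0.0294, limma). The related gene Neurl1a averaged 49.9 FPKM in FAK KO and fell by 1.28 in KMF cells (SE 0.15, adjusted p = 1.78e-04, limma), but rose by 0.43 in β-catenin ΔGSK cells (SE 0.092, adjusted p = 0.00394, limma).

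Dtx1, which encodes an E3 ligase that binds the Notch intracellular part, was highest in FAK KO cells. FAK KO samples had 45.0, 52.8 and 55.4 FPKM. FAK-WT samples had 31.2, 30.3 and 23.8 FPKM and FAK-R454 samples 29.9 and 30.3 FPKM. KMF samples had 17.2, 19.6 and 11.5 FPKM and β-catenin ΔGSK samples 7.64, 8.92 and 9.53 FPKM. All samples of the other lines lay below those of FAK KO, and FAK-WT and FAK-R454 overlapped. Against FAK KO, the log2 difference of Dtx1 was -0.85 with FAK-WT (SE 0.12, adjusted p = 0.00128) and -0.75 with FAK-R454 (SE 0.092, adjusted p = 0.00144, limma). It was -1.69 for KMF (SE 0.18, adjusted p = 1.08e-04) and -2.54 for β-catenin ΔGSK (SE 0.11, adjusted p = 3.16e-07, limma). Itch, another ligase of Notch turnover, fell by 0.57 with FAK-WT (SE 0.087, adjusted p = 0.00191) and fell by 0.35 with FAK-R454 against FAK KO (SE 0.099, adjusted p = 0.0437, limma). It was also lower in β-catenin ΔGSK than in FAK KO cells, with differences of -0.36 to -0.20 over 15 alternatives. The adjusted p there ran from 0.00430 to 0.161 (limma).

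The Groucho-type corepressors Tle1 and Tle2 bind Hes proteins and also TCF factors. Tle1 rose relative to FAK KO by 1.15 for β-catenin ΔGSK (SE 0.070, adjusted p = 2.51e-06) and by 0.81 for FAK-R454 (SE 0.073, adjusted p = 3.42e-04), and fell by 0.30 in KMF cells (SE 0.092, adjusted p = 0.0245, limma). Its FAK-R454 samples had 20.5 and 21.8 FPKM, above the 11.6 to 12.6 FPKM of FAK KO and the 8.83 to 11.6 FPKM of FAK-WT samples. Tle1 was lower in FAK-WT than in FAK-R454 by 1.08 on the log2 scale, the only 2-fold call of the list there (SE 0.12, adjusted p = 0.00835, limma). Over 14 alternatives that adjusted p ran from 5.27e-06 to 0.140. The Tle2 difference from FAK KO was -1.68 for β-catenin ΔGSK (SE 0.19, adjusted p = 9.34e-05), -1.19 for KMF (SE 0.11, adjusted p = 5.99e-05) and -0.70 for FAK-WT (SE 0.13, adjusted p = 0.00482, limma).

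Nrarp, a feedback inhibitor that is itself switched on by Notch, had another pattern than Hes1. KMF samples had 6.01, 5.59 and 4.38 FPKM, FAK-WT samples 2.47, 2.44 and 1.61 FPKM, and FAK KO samples 1.08, 1.41 and 1.54 FPKM. The third FAK-WT sample lay close to FAK KO, and the KMF samples lay apart from both. Nrarp rose by 1.91 in KMF (SE 0.16, adjusted p = 2.99e-05) and by 0.65 in FAK-WT relative to FAK KO cells (SE 0.20, adjusted p = 0.0332, limma). Without the third FAK-WT sample the FAK-WT difference was 0.84 with an adjusted p of 0.00829 (limma). In β-catenin ΔGSK cells Nrarp had a difference of -0.12 from FAK KO (SE 0.17, adjusted p = 0.551, limma). The γ-secretase subunit gene Psen2 was called only between FAK-WT and FAK-R454, with a fall of 0.28 (SE 0.058, adjusted p = 0.0420, limma). In β-catenin ΔGSK cells each of the 5 tested genes of receptor glycosylation was called against FAK KO, 4 lower and 1 higher, where 58.1% of all genes tested were called. Some of the calls on pathway genes were lost when 1 sample was left out. These were Nrarp with FAK-WT (adjusted p from 0.0522 to 0.112 without any 1 sample other than the third FAK-WT sample), Neurl1b with FAK-R454 (0.0790 without the third FAK KO sample, 0.270 and 0.136 without the first or second FAK-R454 sample) and Itch with FAK-R454 (0.0635 and 0.132 without the first or the third FAK KO sample, 0.316 and 0.123 without the first or second FAK-R454 sample, limma). Tle1 in KMF was lost without the third FAK KO sample (adjusted p = 0.0934), Tle1 between FAK-WT and FAK-R454 without either FAK-R454 sample (0.125 and 0.140), and Psen2 without any 1 sample other than the third FAK-WT sample (0.112 to 0.273, limma). With no filter, Nrarp with FAK-WT (0.0765), Neurl1b (0.0688) and Itch (0.0978) with FAK-R454 and Psen2 (0.0660) were not called either. Chromosome centring ended the calls of Itch with FAK-R454 (0.0966), Tle1 in KMF (0.105) and Psen2 (0.0972), and a fit without the trend those of Itch (0.0792) and Psen2 (0.0509, limma). Psen2 was also not called in 1 fit of 5 lines (0.0664), with scaling by medians of ratios (0.0694) or in limma-voom (0.0564).

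**Figure D4:**
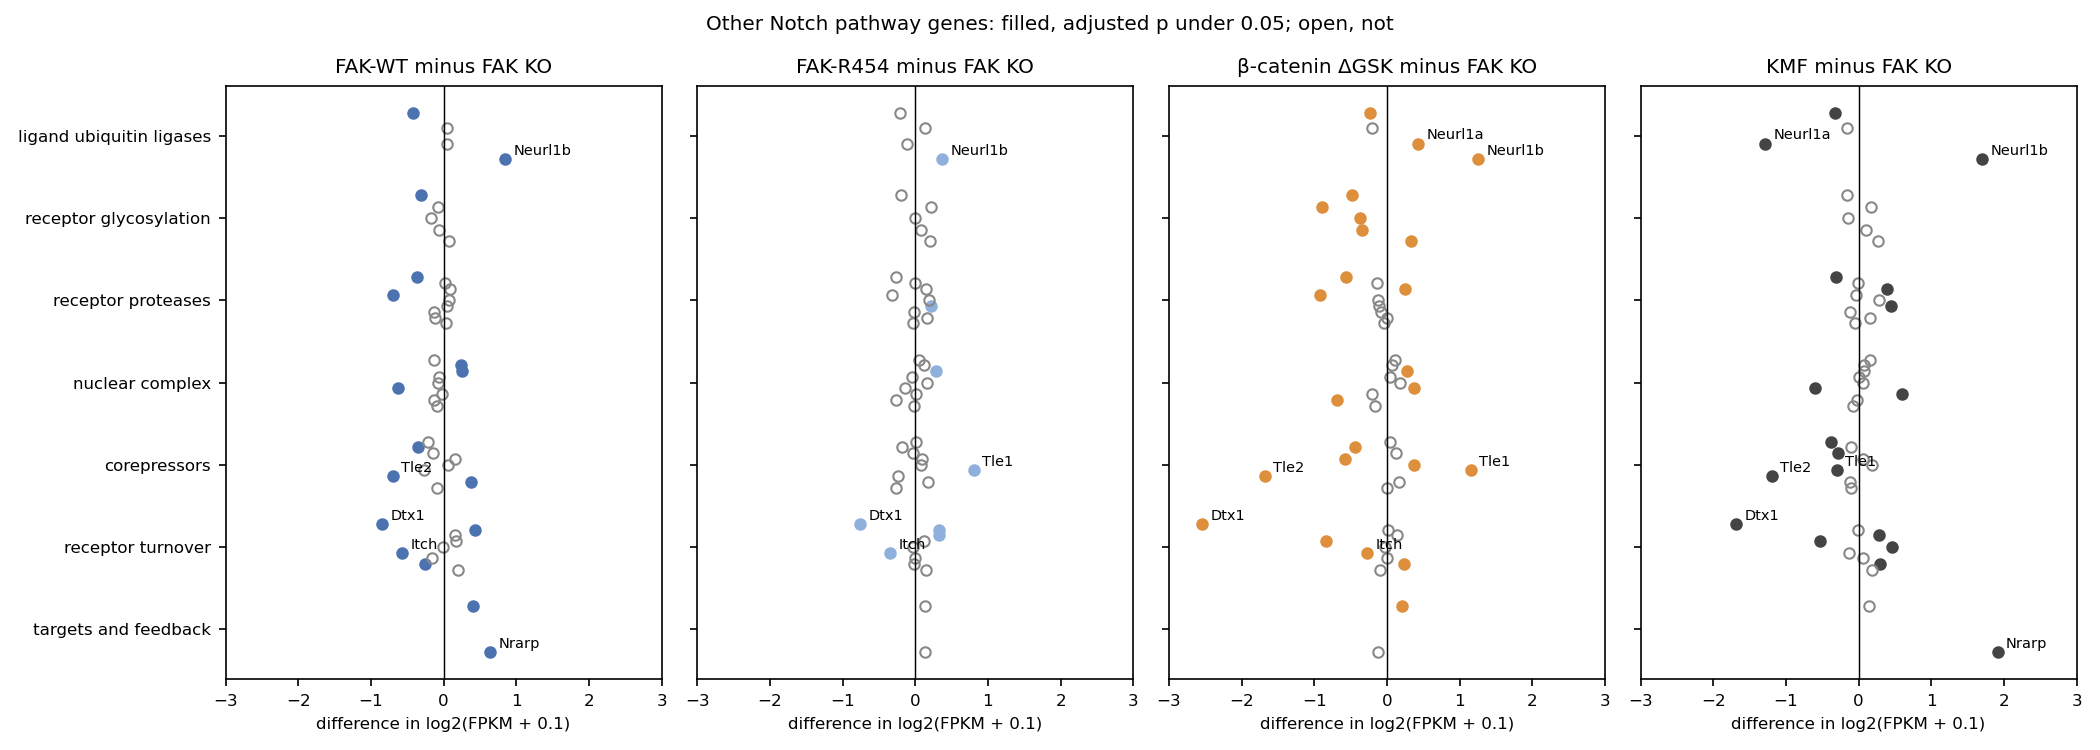
Differences in log2(FPKM + 0.1) from FAK KO (horizontal axis) of the 47 other Notch pathway genes that passed the filter, in rows by role, with 1 panel per line. Filled points had an adjusted p under 0.05 in limma, open points did not, and the named genes are labelled where they were called. Dtx1 lies at -2.54 in the β-catenin ΔGSK panel and Nrarp at 1.91 in the KMF panel.

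The level of Jag2 across the 14 samples was compared with that of 2826 genes that had a mean above 1 FPKM in at least 1 line and line means at least 2-fold apart. Several samples come from each line, and they include those whose Jag2 values led to the choice of genes, so these correlations are descriptions. The highest Pearson r of log2(FPKM + 0.1) were those of Klf5 (0.986), Flt1 (0.965), Aqp5 (0.959), Sgsm1 (0.955) and Smagp (0.955). Klf5, a zinc finger transcription factor, averaged 3.52 FPKM for KMF, 2.86 for β-catenin ΔGSK, 2.51 for FAK-WT, 1.30 for FAK-R454 and 0.753 FPKM for FAK KO. Flt1, which encodes a VEGF receptor, averaged 4.24 FPKM in FAK KO and 11.5 FPKM in KMF cells, and Aqp5, a water channel gene, 77.9 and 214 FPKM. Of the other Notch genes described here, Dll1 was most like Jag2, with an r of 0.692, followed by Notch3 with 0.647. Heyl was most unlike it, with an r of -0.845, and Jag1 and Hes1 had r values of -0.342 and -0.251.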

How the data were processed

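Poly(A) RNA of 14 tumorsphere samples of 5 lines was sequenced from paired ends. The authors deposited FPKM for 35275 genes on mouse GRCm38 coordinates. The study's methods name TopHat2 as the aligner, whereas the submitters' processing notes name STAR 2.5, CASAVA 1.8, DESeq2 and the build mm10. Whether counting used strand is not given in the sources used here. FPKM times gene length gave whole fragments for 100% of values (tolerance 0.01), which were used for depth and for limma-voom.

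Lines were compared 2 at a time in limma 3.58.1 (R 4.3.3), on log2(FPKM + 0.1) with a mean-variance trend, over genes with mean FPKM above 1 in at least 1 of the 2 lines. This scale understates changes of low genes. A gene was called at a Benjamini-Hochberg adjusted p under 0.05 over all genes tested. Genes below the filter were fitted with no filter. The fit was tested on data simulated for FAK-WT against FAK KO only, with no outlying sample. That test does not cover the comparisons with FAK-R454, which has fewer samples. The 10 genes and the lists were chosen with earlier results of these data known. Named pathway genes were those called at 2-fold in any comparison and, per comparison, the 2 called genes that changed most either way. Alternatives were a pseudocount of 1, no filter, a filter at 5 FPKM, the replicate number as a block, limma-voom, scaling by medians of ratios, 1 fit of 5 lines, no trend, chromosome centring, a 2-fold threshold and leaving out each sample. The fits with no filter under other settings were added after seeing the data.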

Additional observations from a re-analysis of the deposited data

How the results depend on the processing

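Of 498 values of those of the 10 genes that passed a filter under an alternative, 451 kept their direction and their side of the threshold or moved by less than the spread between replicates, 13 lost a call, 17 gained one, 13 moved and 4 changed sign in a comparison with a p-value. These changes of sign were in values near 0: for FAK-R454 relative to FAK KO, Jag1 was -0.0099 without FAK KO replicate 2 and -0.023 without FAK-R454 replicate 2 (up to 0.12 without single samples), and Notch2 was -0.0060 without FAK KO replicate 1 and -0.00055 without FAK-R454 replicate 2 (up to 0.070). Below the filter, Dll4 was -0.029 for FAK-R454 relative to FAK KO without FAK KO replicate 1 (up to 0.14) and 0.081 for FAK-WT relative to FAK-R454 without FAK-WT replicate 1 (down to -0.10). Notch1 was 0.079 for KMF relative to FAK-R454 with the replicate block, 0.079 without KMF replicate 3 and 0.063 without FAK-R454 replicate 2 (down to -0.14). Among the differences of FAK-WT from FAK KO, given with no p-value, Dll1 turned from 0.0037 to -0.0094 in limma-voom, to -0.10 with chromosome centring, to -0.075 without FAK KO replicate 1, to -0.039 without FAK-WT replicate 1 and to -0.18 without FAK-WT replicate 2, Notch2 turned from -0.10 to 0.025 with chromosome centring, and Dll4 turned from 0.036 to -0.061, -0.033 and -0.0072 without FAK KO replicate 1 and FAK-WT replicates 2 and 3.

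With a 2-fold threshold, the genes called were 547 for FAK-WT relative to FAK KO, 324 for FAK-R454 relative to FAK KO, 1444 for β-catenin ΔGSK relative to FAK KO, 953 for KMF relative to FAK KO, 170 for FAK-WT relative to FAK-R454 and 805 for KMF relative to FAK-R454, and the pathway genes among them were 0, 0, 4, 5, 1 and 4, instead of 4837, 2325, 6928, 6161, 921 and 5189 genes and 17, 8, 24, 18, 2 and 19 pathway genes. Chromosome centring gave 11 pathway genes for FAK-WT relative to FAK KO and 528 genes for FAK-WT relative to FAK-R454. With no filter, FAK-R454 relative to FAK KO gave 1526 genes and 5 pathway genes, and FAK-WT relative to FAK-R454 gave 581 and 1. Without the trend, FAK-R454 relative to FAK KO gave 5 pathway genes. The cause of these changes was not tested.

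Leaving out 1 sample at a time gave 2727 to 5165 genes and 8 to 18 pathway genes for FAK-WT relative to FAK KO, 548 to 4390 and 2 to 17 for FAK-R454 relative to FAK KO, 5670 to 7297 and 15 to 24 for β-catenin ΔGSK relative to FAK KO, 4746 to 6257 and 14 to 24 for KMF relative to FAK KO, 7 to 3312 and 0 to 18 for FAK-WT relative to FAK-R454, and 2603 to 6823 and 8 to 25 for KMF relative to FAK-R454. The largest count of FAK-R454 relative to FAK KO came without FAK KO replicate 2. Where a line is left with 1 sample, it is assumed to vary like the other line.

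Samples with the same replicate number did not deviate together throughout, with correlations of -0.245 to 0.445, so the numbers were not taken as pairs. The fit with the replicate number as a block gave 2 pathway genes for FAK-R454 relative to FAK KO, and 3393 genes and 17 pathway genes for FAK-WT relative to FAK-R454, where FAK-R454 has no replicate 3 and the block removes FAK-WT replicate 3 from the difference. With the block, Neurl1b (adjusted p = 0.0901) and Itch (0.0753) were not called for FAK-R454 relative to FAK KO, nor, with no filter, were Notch3 in that comparison (0.366) and Heyl for FAK-WT (0.168) and KMF (0.0802, limma) relative to FAK-R454. With 2 FAK-R454 samples, small differences may have been missed. The same holds for Hey1 and Dll4, with 2 to 25 fragments per library, and for Notch1, with at most 44. The smallest detectable difference was not measured.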
